A study of Homo sapiens and Mus musculus with 18 samples.

Results

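Polycomb repressive complex 2 (PRC2) was followed at the RNA level through human and mouse gastruloid development. Its members were the 9 genes EZH1, EZH2, EED, SUZ12, JARID2, AEBP2, MTF2, PHF1 and PHF19 and the 9 mouse genes of the same name. They were taken by name from the 44910 human and 29720 mouse genes counted, and all 18 genes passed the low-count filter. Poly(A) RNA was sequenced from 18 samples in 9 groups of 2 biological replicates, 10 human and 8 mouse. Human groups were embryonic stem cells (ESCs) of the H9 line, naive or primed, primed ESCs of the RUES2-GLR line, and RA-gastruloids sampled early (24 h) or late (120 h). The H9 cells had been chemically reset to the naive state and grown in PXGL medium (PD0325901, XAV939, Gö6983 and LIF) on mouse fibroblast feeders that were removed over passages, whereas primed ESCs grew in StemFlex on Geltrex. RUES2-GLR, a line carrying germ-layer reporters, was the source of the RA-gastruloids, which were made by CHIR99021 treatment, first alone and then with retinoic acid (RA), aggregation with CHIR99021 and Y-27632, and later Matrigel with RA. Mouse groups were all E14Tg2a. They comprised naive ESCs in 2i and LIF (CHIR99021, PD0325901 and LIF), epiblast-like cells (EpiLCs) after 2 days in activin A and bFGF, early gastruloids as the CHIR99021 pulse ended on day 3, and late gastruloids on day 6. Mouse gastruloids were seeded from the naive ESCs and not from EpiLCs, so the step from EpiLC to early gastruloid is not a lineage step. H9 and RUES2-GLR are different cell lines, and each stands for a single genotype.

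PRC2 places methyl groups on lysine 27 of histone H3, a mark of silenced developmental genes. EZH2 or its paralogue EZH1 is the methyltransferase, EED and SUZ12 are needed for its activity and stability, and EED binds the methylated product. Accessory subunits divide the complex into PRC2.1, which holds a Polycomb-like protein (MTF2, PHF1 or PHF19), and PRC2.2, which holds JARID2 and AEBP2. In ESCs, PRC2 keeps lineage genes silent. Mouse ESCs are known to self-renew without it, whereas human primed ESCs depend on it to stay undifferentiated.

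Total assigned reads ran from 3681739 (RUES2-GLR ESCs, replicate 2) to 38771193 (primed H9 ESCs, replicate 2) in human and from 6487157 to 20052505 in mouse. Levels are given as CPM (read counts relative to a fixed library total), scaled by trimmed mean of M-values (TMM) within each species. Chi-square per degree of freedom between the 2 replicates would be near 1 if counting error were all. It was 13.8 in late RA-gastruloids, 8.08 in naive H9 ESCs and from 1.55 to 3.98 in the other groups. The measure grows with read depth, which differed between groups, so it does not rank the pairs by likeness. Stage markers were checked against the labels. Summed CPM of KLF17, DPPA5, DPPA3, SUSD2 and TFCP2L1 was 3608 and 3828 in naive H9 ESCs and at most 18.2 elsewhere in human. In mouse, naive markers (Klf4, Zfp42, Esrrb, Tbx3 and Tfcp2l1) summed to 2802 and 2868 CPM in naive ESCs and 64.0 and 62.8 CPM in EpiLCs. Early gastruloids still held 1093 and 1081 CPM of that list. Early gastruloid markers (TBXT, MIXL1, TBX6, CDX1 and CDX2) reached 1033 and 1068 CPM in early RA-gastruloids and 246 CPM in both early mouse libraries. The mouse sum was mostly T, the mouse TBXT, at 213 and 212 CPM, while Cdx1 (17.4 CPM on average) and Cdx2 (4.80 CPM) were below their naive ESC levels of 35.8 and 7.76 CPM and Tbx6 was near the detection floor. Late markers (PAX6, SOX1, PAX3, MEOX1 and TNNT2) reached 486 and 456 CPM in late RA-gastruloids, where TNNT2 was at 0 or near it. In late mouse gastruloids they summed to 205 and 199 CPM, mostly Meox1 and Tnnt2 (138 and 48.4 CPM on average). Pax6, Pax3 and Sox1 were at 10.7, 3.10 and 2.57 CPM there, above their early gastruloid levels, but Sox1 was below its EpiLC level of 14.3 CPM. Since whole cultures were sequenced, fewer cells of a type and less RNA per cell cannot be told apart in any of the values below.

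Stretches of promoter are shown for EZH2, the methyltransferase, and for the members whose start regions held the same 8 letters in both species. Windows of 300 bases, from 250 before to 50 from the start, were searched on both strands for the E2F-type words TTTCCCGC, TTTCGCGC, TTTGCCGC and TTTGGCGC, and a position on a given strand can hold only 1 of them. E2F factors control genes of DNA replication, and EZH2 and EED are known E2F targets. At least 1 word was found for 6 of 9 human members (EZH1, EZH2, SUZ12, AEBP2, MTF2 and PHF19) and 3 of 9 mouse members (Suz12, Mtf2 and Phf19). The human members had 12 windows in all and the mouse members 9, so these counts per gene differ from shares of windows. Among all windows, 3.31% of 35116 in human and 2.82% of 21770 in mouse held such a word. The 7 stretches below are 30 bases each on the gene's strand, with the matching letters in capitals; human windows are those of RefSeq (GRCh38) and mouse windows were read from GRCm39 at the canonical starts of GENCODE M39.
EZH2 (chr7:148884272-148884301, minus strand): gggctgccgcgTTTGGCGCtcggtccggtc
SUZ12 (chr17:31936807-31936836, plus strand): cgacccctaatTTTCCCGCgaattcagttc
Suz12 (chr11:79883702-79883731, plus strand): cgacccctcatTTTCCCGCgaattcagttc
MTF2 (chr1:93079277-93079306, plus strand): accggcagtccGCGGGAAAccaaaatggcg
Mtf2 (chr5:108213576-108213605, plus strand): accgctagtccGCGGGAAAccaaaatggcg
PHF19 (chr9:120877322-120877351, minus strand): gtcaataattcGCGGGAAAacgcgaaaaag
Phf19 (chr2:34804178-34804207, minus strand): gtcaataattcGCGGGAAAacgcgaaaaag

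All 3 pairs shared the word TTTCCCGC, and they were shown because they shared it. The stretches, counted with the word inside them, were alike at 29 of 30 bases for SUZ12, 28 of 30 for MTF2 and 30 of 30 for PHF19. The letters of the word match by that choice, so only the bases around the word could differ. MTF2 and PHF19 carried the word on the strand opposite to the gene. For EZH2 and PHF19 the word shown lay in 1 of 2 RefSeq windows. No word was found in the windows of EED, JARID2 or PHF1 in human, which says only that these letters are not there. A match is a description of the sequence and was not tested for binding.

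**Figure D1:**
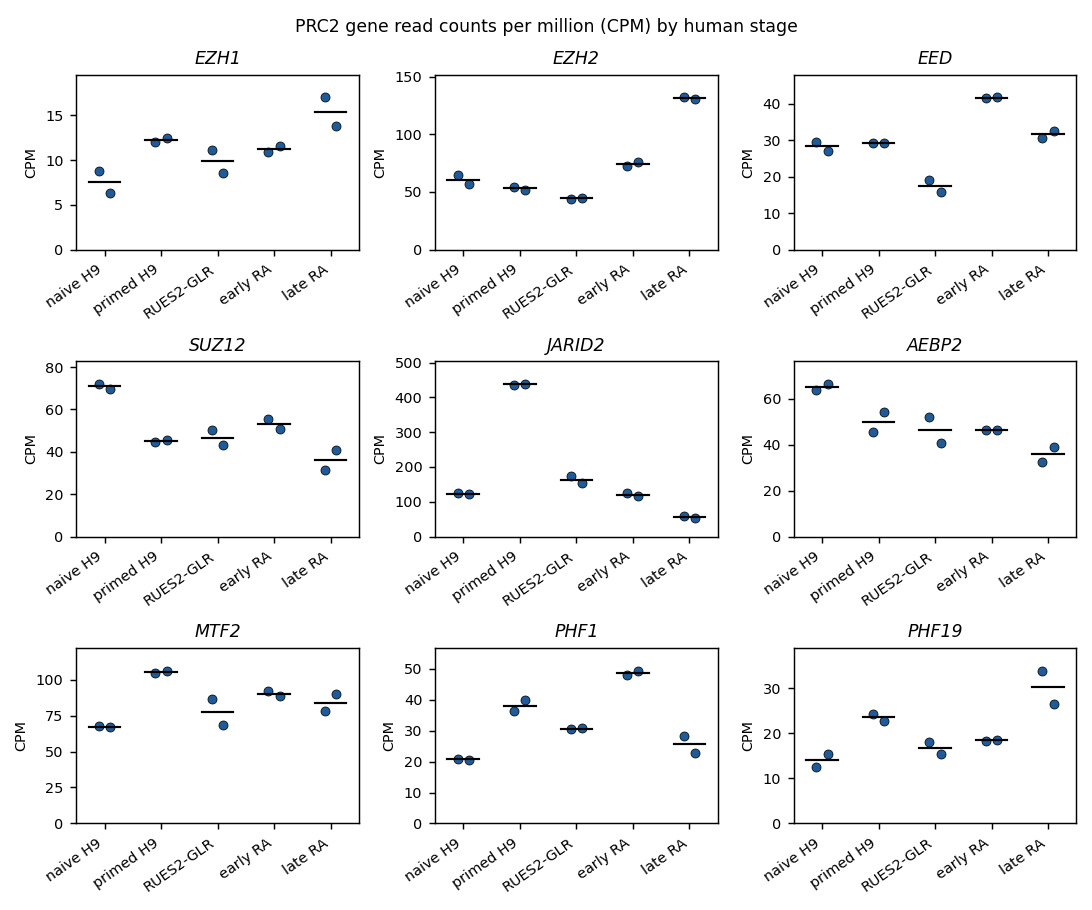
CPM (y axis, from 0, a different scale in each panel) of the 9 PRC2 genes in the 5 human groups (x axis). Points are the 2 replicates and bars their mean. JARID2 peaked in primed H9 ESCs at 437 and 438 CPM and EZH2 in late RA-gastruloids at 132 and 131 CPM.

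Changes between stages were tested for all genes of a species together (edgeR quasi-likelihood test, Benjamini-Hochberg adjusted p). A gene rose or fell where adjusted p was under 0.05, and it was called a differentially expressed transcript (DET) where the log2 fold change also passed 1 in size. Between naive and primed H9 ESCs 1 of 9 members was a higher DET (25.5% of 18300 genes tested) and 0 were lower DETs (22.3% of genes). With adjusted p alone 7 of 9 members passed, near the 75.3% of all genes. The median log2 fold change of all 9 members was 0.65, against 0.00 over all genes. From primed H9 to primed RUES2-GLR ESCs 1 member was a lower DET (12.2% of genes) and 0 were higher (17.1%). Here 5 of 9 passed the adjusted p alone (58.5% of genes). The median of all 9 members was -0.32, against -0.12 over all genes. For 3 of the 5 that passed (MTF2 at -0.42, PHF19 at -0.45 and PHF1 at -0.32) the call was lost with upper-quartile scaling (-0.23, -0.26 and -0.14, with adjusted p of 0.0881, 0.152 and 0.376). It was also lost without RUES2-GLR replicate 2 (-0.19, -0.28 and -0.24). From RUES2-GLR ESCs to early RA-gastruloids 1 member was a higher DET (12.0% of genes) and 0 were lower (17.6%), and 4 of 9 passed the adjusted p alone (55.8% of genes).

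Between early and late RA-gastruloids 1 member was a lower DET (13.2% of genes) and 0 were higher (11.8%). In that step 8 of 9 members passed the adjusted p alone, 3 upward and 5 downward, against 52.0% of genes. Leaving out early replicate 1 ended the calls of EED (-0.4), AEBP2 (-0.38) and EZH1 (0.43). Without early replicate 2 the same calls ended, at -0.4, -0.39 and 0.52. From RUES2-GLR ESCs to late RA-gastruloids 1 member was a higher DET (17.3% of genes), 1 was lower (21.0%), and 7 of 9 passed the adjusted p alone (63.6% of genes). These human comparisons share libraries with each other, as do the mouse ones. The human DETs were JARID2 in 4 comparisons, EZH2 in 1 and EED in 1.

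In mouse, 4 members were DETs between naive ESCs and EpiLCs, 1 higher (17.7% of 15003 genes tested) and 3 lower (12.1%). The same 4 passed the adjusted p alone, which 66.0% of genes did. From EpiLCs to early gastruloids 2 were higher DETs (11.7% of genes) and 0 lower (9.24%), and 7 of 9 passed the adjusted p alone (62.7% of genes). From naive ESCs to early gastruloids 2 were higher DETs (16.2% of genes) and 0 lower (6.81%), and 8 of 9 passed the adjusted p alone (63.0% of genes). Between early and late gastruloids 5 of 9 were lower DETs (19.1% of genes) and 0 higher (20.1%). All 9 mouse members passed the adjusted p there, 2 upward and 7 downward, as did 76.1% of genes. Their median log2 fold change was -1.04, against -0.03 over all genes.

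**Figure D2:**
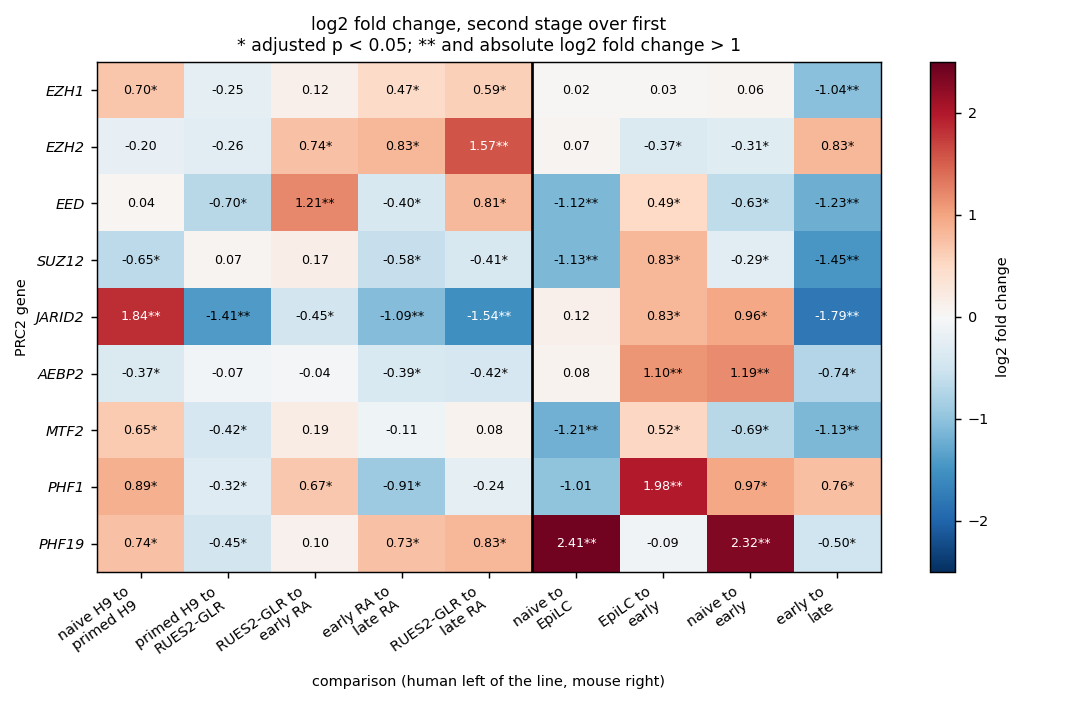
Log2 fold change (colour and number) of each PRC2 gene (rows) in 5 human and 4 mouse comparisons (columns). A single asterisk marks an adjusted p under 0.05 and a double asterisk a DET. In the last column 7 of the 9 mouse genes fell from early to late, with Jarid2 at -1.79, while Ezh2 rose by 0.83.

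EZH2, the catalytic subunit of proliferating cells, lies at chr7:148807257-148884321 of GRCh38 on the minus strand. It was measured at 64.5 and 57.1 CPM in naive and 54.3 and 52.1 in primed H9 ESCs, 44.1 and 44.6 in RUES2-GLR ESCs, 72.1 and 75.6 in early RA-gastruloids and 132 and 131 in late ones. No neighbouring groups in that order overlapped. Late RA-gastruloids stood above every other library, and RUES2-GLR ESCs were lowest. EZH2 rose from RUES2-GLR ESCs to early RA-gastruloids by 0.74 ± 0.120 (log2 fold change ± SE, adjusted p = 4.44e-06) and again from early to late by 0.83 ± 0.109 (adjusted p = 1.3e-07). Over both steps it was a DET, 2.97-fold higher (log2 1.57 ± 0.118, adjusted p = 5.37e-13). The naive and primed H9 difference did not pass the test (-0.20 ± 0.108, adjusted p = 0.101), but passed it with DESeq2 (-0.3, adjusted p = 0.0237), with DESeq2 size factors (-0.31, adjusted p = 0.0104) and without naive replicate 2 (-0.33, adjusted p = 0.0285). GENCODE lists 1 EZH2 pseudogene. Reads that also map to it would be missing from these counts, and how many there were was not measured.

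Mouse Ezh2 (chr6:47507073-47572275 of GRCm39, minus strand) was at 202 CPM in both naive ESC libraries, 219 and 205 in EpiLCs, 166 and 161 in early and 284 and 299 in late gastruloids. Late gastruloids were again the highest group and early gastruloids the lowest, and no groups overlapped. Ezh2 fell from naive ESCs to early gastruloids by 0.31 on the log2 scale (SE 0.0567, adjusted p = 5.1e-06) and rose from early to late by 0.83 ± 0.0561 (adjusted p = 5.04e-20). Its naive to EpiLC difference did not pass the test (0.07 ± 0.0572, adjusted p = 0.312), but passed it with upper-quartile scaling (0.16, adjusted p = 0.0133).

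EZH2 is often used as a sign of cycling cells, so a list of 13 cycling genes (MKI67, TOP2A, CDK1, CCNA2, CCNB1, PCNA, MCM2 to MCM7 and E2F1) was summed beside it. In human the sum was 3422 and 3376 CPM in naive and 4032 and 4132 CPM in primed H9 ESCs. RUES2-GLR ESCs held 2639 and 2540 CPM, and EZH2 was also lowest there. The sum was 3382 and 3423 CPM in early and 3890 and 3528 CPM in late RA-gastruloids. TOP2A was its most abundant gene in the late libraries, at 673 and 771 CPM. From RUES2-GLR ESCs to late RA-gastruloids, the comparison in which EZH2 was a DET, 3 of the 13 genes were higher DETs, near the 17.3% of all genes. The median log2 fold change over the 13 was 0.59, against 0.08 over all genes, and the part of cycling cells in the EZH2 rise was not tested. In mouse the sum was 6521 and 6496 CPM in naive ESCs and 5868 and 5922 CPM in EpiLCs. It went from 5213 and 5157 CPM in early to 4263 and 4148 CPM in late mouse gastruloids, where Top2a led with 841 and 813 CPM. Between early and late gastruloids 0 of the 13 mouse genes were DETs (20.1% of all genes were higher and 19.1% lower). The median log2 fold change over the 13 was -0.23, against -0.03 over all genes. Ezh2 rose in that step, and the part of cycling cells in its change was not tested either. No gene of the list was at 0 in any library. Across libraries, the median Pearson correlation of log2 CPM between the list's genes and EZH2 was 0.226 in human (10 libraries) and -0.392 in mouse (8 libraries), and with EZH1 it was 0.253 and 0.723, a description over libraries that share stages.

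EZH1, the paralogue more typical of resting cells, lies at chr17:42700275-42745049 of GRCh38. It was measured at 8.73 and 6.31 CPM in naive and 12.0 and 12.5 in primed H9 ESCs, 11.1 and 8.60 in RUES2-GLR ESCs, 10.9 and 11.6 in early RA-gastruloids and 17.0 and 13.8 in late ones. Late RA-gastruloids lay above primed H9 ESCs and these above the other 3 groups, which overlapped their neighbours. These levels rest on few reads, 27 in RUES2-GLR replicate 2 and 110 in naive H9 replicate 2. EZH1 rose from naive to primed H9 ESCs by 0.70 ± 0.169 (adjusted p = 0.000436) and from early to late RA-gastruloids by 0.47 ± 0.177 (adjusted p = 0.0251). The first change was 0.92 without naive replicate 1 and 0.45 without naive replicate 2. The second call was lost without late replicate 1 (0.29, adjusted p = 0.276), without either early replicate and with DESeq2 (adjusted p = 0.19).

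Mouse Ezh1 (chr11:101081941-101117289 of GRCm39) was at 33.8 and 38.0 CPM in naive ESCs, 37.1 and 36.6 in EpiLCs, 36.9 and 38.7 in early and 19.5 and 16.8 in late gastruloids. The first 3 stages overlapped each other and late gastruloids lay below all of them. Ezh1 was a lower DET between early and late gastruloids (-1.04 ± 0.109, adjusted p = 9.22e-13). That log2 fold change was close to the limit of 1, and the DET call was lost with DESeq2 size factors or without late replicate 2.

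Per length, EZH2 exceeded EZH1 in every group. The ratio of their CPM per kb of merged exons was 4.79 and 5.87 in naive and 2.93 and 2.70 in primed H9 ESCs, 2.59 and 3.36 in RUES2-GLR ESCs, 4.30 and 4.22 in early RA-gastruloids and 5.02 and 6.18 in late ones. In mouse it was 6.67 and 5.92 in naive ESCs, 6.58 and 6.25 in EpiLCs, 5.02 and 4.62 in early and 16.2 and 19.8 in late gastruloids. Late mouse gastruloids stood apart with a ratio of 18 ± 2.53 (SD, n = 2). In human, naive H9 ESCs and early and late RA-gastruloids were all above the primed lines. The size of the ratio depends on the length used. Merged exons of human EZH2 span 10774 bases and its canonical transcript 2654, and with canonical lengths the ratio was 15.1 in late RA-gastruloids and 22.2 in late mouse gastruloids. Within a species the order of groups cannot change with the length.

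**Figure D3:**
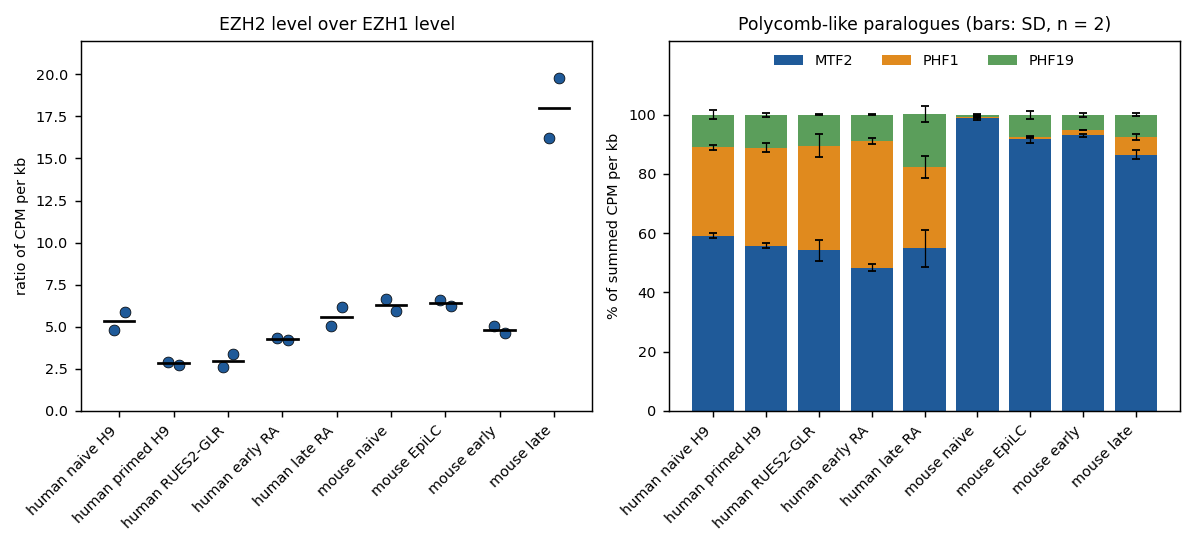
Left, ratio of EZH2 to EZH1 CPM per kb (y axis) in each group, with points for the 2 replicates and bars for their mean. Right, mean percent of the summed CPM per kb held by MTF2, PHF1 and PHF19, with SD (n = 2). The ratio reached 18 in late mouse gastruloids, and Mtf2 held 86.5% or more in every mouse group.

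For the core subunits EED and SUZ12, the Pearson correlation of log2 CPM was 0.973 over the 8 mouse libraries and 0.095 over the 10 human libraries, which share stages in pairs. Mouse Eed (chr7:89603862-89630191 of GRCm39), the reader of the methyl mark, was at 261 and 259 CPM in naive ESCs, 124 and 115 in EpiLCs, 162 and 173 in early and 71.1 and 71.6 in late gastruloids. Mouse Suz12 (chr11:79883932-79924949), the scaffold of the complex, was at 375 and 363 CPM in naive ESCs, 164 and 172 in EpiLCs, 295 and 307 in early and 118 and 101 in late gastruloids. Both genes had the same order of stages, naive above early, EpiLC and late, with no overlap between any groups. Eed was a lower DET from naive ESCs to EpiLCs (-1.12 ± 0.0607, adjusted p = 5.9e-24) and from early to late gastruloids (-1.23 ± 0.0660, adjusted p = 2.24e-24). Suz12 was a lower DET in the same steps (-1.13 ± 0.0581, adjusted p = 5.82e-25 and -1.45 ± 0.0611, adjusted p = 2.44e-29). From naive ESCs to early gastruloids both fell by less, 0.63 for Eed and 0.29 for Suz12 on the log2 scale (adjusted p = 1.72e-14 and 6.01e-06). Other genes share 7.47% of the Eed exon bases, and reads there were not assigned.

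Human EED (chr11:86244753-86278813 of GRCh38) was at 29.5 and 27.2 CPM in naive H9 ESCs, 29.2 in both primed H9 libraries, 19.0 and 15.9 in RUES2-GLR ESCs, 41.7 and 41.8 in early RA-gastruloids and 30.7 and 32.6 in late ones. RUES2-GLR ESCs were lowest and early RA-gastruloids highest, and only naive and primed H9 ESCs overlapped. From RUES2-GLR ESCs to early RA-gastruloids EED was a higher DET (1.21 ± 0.143, adjusted p = 1.42e-08), and it then fell to late RA-gastruloids by 0.40 (SE 0.125, adjusted p = 0.00751), a call lost without either early replicate (adjusted p = 0.0618 and 0.0631) or the low-count filter (adjusted p = 0.119). The RUES2-GLR value of replicate 2 rests on 50 reads.

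Human SUZ12 (chr17:31937007-32001038 of GRCh38) was at 71.9 and 69.8 CPM in naive and 44.8 and 45.7 in primed H9 ESCs, 50.1 and 43.0 in RUES2-GLR ESCs, 55.7 and 50.8 in early RA-gastruloids and 31.5 and 40.9 in late ones. Naive H9 ESCs were highest and late RA-gastruloids lowest, and the primed lines overlapped. SUZ12 fell from naive to primed H9 ESCs by 0.65 (SE 0.120, adjusted p = 1.59e-05) and from early to late RA-gastruloids by 0.58 (SE 0.128, adjusted p = 0.000355), in each case without reaching the DET limit. EED and SUZ12 each have 1 pseudogene in the human annotation.

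**Figure D4:**
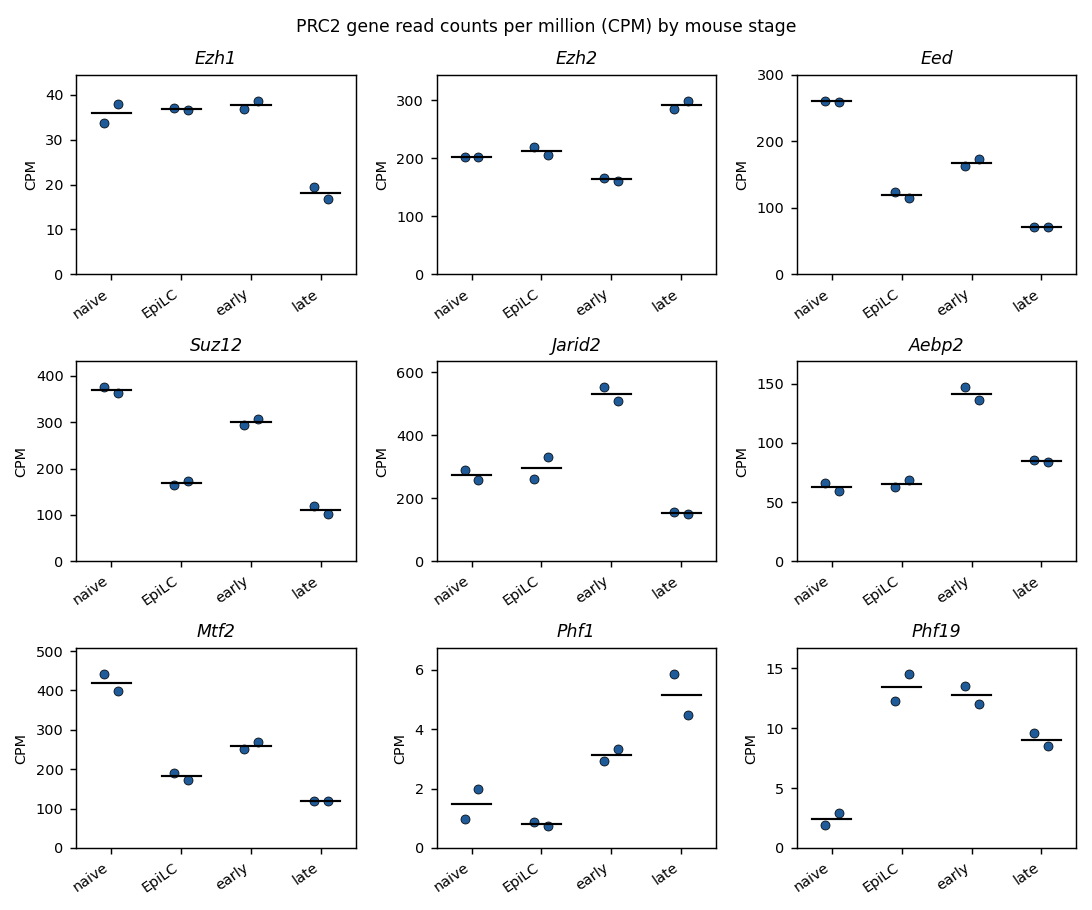
CPM (y axis, from 0, a different scale in each panel) of the 9 PRC2 genes in the 4 mouse groups (x axis). Points are the 2 replicates and bars their mean. Eed, Suz12 and Mtf2 were highest in naive ESCs and lowest in late gastruloids, Jarid2 and Aebp2 were highest in early gastruloids, and Ezh2 was highest in late gastruloids at 284 and 299 CPM.

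Of the PRC2.2 subunits, JARID2, which recruits the complex to chromatin, made the widest change in human. JARID2 (chr6:15246069-15522042 of GRCh38) was at 124 and 122 CPM in naive and 437 and 438 in primed H9 ESCs, 173 and 154 in RUES2-GLR ESCs, 124 and 116 in early RA-gastruloids and 58.0 and 54.3 in late ones. Primed H9 ESCs stood far above all other libraries, and only naive H9 ESCs and early RA-gastruloids overlapped. JARID2 was 3.57-fold higher in primed than naive H9 ESCs (log2 1.84 ± 0.104, adjusted p = 2.43e-16). The primed lines themselves also differed, though by less, with RUES2-GLR ESCs lower (-1.41 ± 0.105, adjusted p = 7.55e-13). From RUES2-GLR ESCs JARID2 fell to early RA-gastruloids by 0.45 (SE 0.106, adjusted p = 0.000538) and from early to late by 1.09 (SE 0.108, adjusted p = 4.42e-10), the second a DET. It was the only member to be a DET between early and late RA-gastruloids. In primed H9 ESCs it took 437 of the 789 CPM summed over the 9 members in replicate 1 and 438 of 801 in replicate 2.

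Mouse Jarid2 (chr13:44882950-45075119 of GRCm39) was at 290 and 258 CPM in naive ESCs, 261 and 329 in EpiLCs, 551 and 507 in early and 155 and 151 in late gastruloids. It was highest in early and lowest in late gastruloids, and naive ESCs and EpiLCs overlapped. The naive to EpiLC difference did not pass the test (0.12 ± 0.0637, adjusted p = 0.0869), and did with upper-quartile scaling (0.21, adjusted p = 0.00184), without naive replicate 1 (0.2, adjusted p = 0.0368) and without EpiLC replicate 1 (0.27, adjusted p = 1.45e-05). Jarid2 rose from naive ESCs to early gastruloids by 0.96 ± 0.0622 (adjusted p = 3.55e-20), just under the DET limit, and passed that limit with upper-quartile scaling. From early to late gastruloids it fell 3.45-fold (log2 -1.79 ± 0.0660, adjusted p = 4.32e-32), the widest change of any mouse member in that step.

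AEBP2, the zinc-finger partner of JARID2, lies at chr12:19404045-19720801 of GRCh38. It was at 63.8 and 66.4 CPM in naive and 45.4 and 54.5 in primed H9 ESCs, 51.9 and 40.8 in RUES2-GLR ESCs, 46.6 and 46.4 in early RA-gastruloids and 32.4 and 39.2 in late ones. Naive H9 ESCs lay above and late RA-gastruloids below the other groups, which overlapped. AEBP2 fell from naive to primed H9 ESCs by 0.37 (SE 0.122, adjusted p = 0.00698) and from early to late by 0.39 (SE 0.133, adjusted p = 0.0145). The first call was lost without primed H9 replicate 1 (-0.23, adjusted p = 0.2), and the second without late replicate 1 (-0.25, adjusted p = 0.16), without either early replicate and without the low-count filter. AEBP2 and SUZ12 had alike profiles in human, with a Pearson correlation of log2 CPM of 0.918 over the 10 libraries.

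Mouse Aebp2 (chr6:140546644-140713010 of GRCm39) was at 66.4 and 59.1 CPM in naive ESCs, 62.5 and 68.4 in EpiLCs, 147 and 136 in early and 85.8 and 84.3 in late gastruloids. Early gastruloids stood above all others, while naive ESCs and EpiLCs overlapped. It was a higher DET from naive ESCs to early gastruloids (1.19 ± 0.0708, adjusted p = 8.52e-22) and fell to late gastruloids by 0.74 (SE 0.0694, adjusted p = 2.63e-14).

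The Polycomb-like proteins of PRC2.1 bind unmethylated CpG-rich DNA and dock the complex there. MTF2 (chr1:93079235-93139079 of GRCh38) was at 67.7 and 66.8 CPM in naive and 105 and 106 in primed H9 ESCs, 86.7 and 68.8 in RUES2-GLR ESCs, 92.2 and 88.6 in early RA-gastruloids and 78.1 and 89.8 in late ones. Naive H9 ESCs were lowest and primed H9 ESCs highest, and late RA-gastruloids overlapped both RUES2-GLR ESCs and early RA-gastruloids, which did not overlap each other. MTF2 rose from naive to primed H9 ESCs by 0.65 ± 0.113 (adjusted p = 5.44e-06), and neither step after RUES2-GLR passed the test.

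Mouse Mtf2 (chr5:108213540-108256870 of GRCm39) was at 441 and 398 CPM in naive ESCs, 191 and 173 in EpiLCs, 251 and 269 in early and 119 in both late libraries. It followed the order of Eed and Suz12, without overlap, and over the 8 libraries its Pearson correlation of log2 CPM was 0.996 with Eed and 0.969 with Suz12. Mtf2 was a lower DET from naive ESCs to EpiLCs (-1.21 ± 0.0584, adjusted p = 3.41e-26) and from early to late gastruloids (-1.13 ± 0.0615, adjusted p = 4.79e-24).

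PHF1 (chr6:33410399-33416453 of GRCh38) was at 21.0 and 20.4 CPM in naive and 36.3 and 40.0 in primed H9 ESCs, 30.4 and 30.9 in RUES2-GLR ESCs, 48.1 and 49.3 in early RA-gastruloids and 28.3 and 22.9 in late ones. Early RA-gastruloids were highest and naive H9 ESCs lowest, and no neighbours overlapped. PHF1 rose from naive to primed H9 ESCs by 0.89 ± 0.124 (adjusted p = 1.71e-07) and from RUES2-GLR ESCs to early RA-gastruloids by 0.67 ± 0.137 (adjusted p = 9.97e-05). It then fell to late RA-gastruloids by 0.91 (SE 0.128, adjusted p = 4.54e-07). Without late replicate 1 that fall passed the DET limit, and 2 members were then DETs in this step.

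Mouse Phf1 (chr17:27152026-27156882 of GRCm39) was at low counts, and closest to the detection floor in naive ESCs and EpiLCs. Its counts were 7 and 22 reads in naive ESCs, 6 and 11 in EpiLCs, 59 and 38 in early and 50 and 30 in late gastruloids, or 0.977 and 1.97, 0.887 and 0.724, 2.91 and 3.34, and 5.84 and 4.47 CPM. A count of 3 reads is worth 0.148 to 0.447 CPM in these libraries. Of its exon bases, 39.3% (1370 of 3486) are shared with the antisense gene Cuta, and reads there were not assigned to either gene, so its level is understated. The EpiLC to early gastruloid rise (1.98 ± 0.388, adjusted p = 1.25e-05) was a DET, but the gene was left untested under a minimum of 10 reads in every library of the groups compared.

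PHF19 (chr9:120855651-120894896 of GRCh38) was at 12.6 and 15.5 CPM in naive and 24.3 and 22.8 in primed H9 ESCs, 18.1 and 15.3 in RUES2-GLR ESCs, 18.3 and 18.6 in early RA-gastruloids and 33.8 and 26.6 in late ones. Late RA-gastruloids were highest, and naive H9 and RUES2-GLR ESCs overlapped at the low end. PHF19 rose from naive to primed H9 ESCs by 0.74 ± 0.143 (adjusted p = 2.79e-05) and from early to late RA-gastruloids by 0.73 ± 0.149 (adjusted p = 0.000127).

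Mouse Phf19 (chr2:34783769-34804038 of GRCm39) was at 1.95 and 2.96 CPM in naive ESCs, 12.3 and 14.5 in EpiLCs, 13.5 and 12.0 in early and 9.57 and 8.49 in late gastruloids. Naive ESCs lay far below the other stages, of which EpiLCs and early gastruloids overlapped. Phf19 was 5.32-fold higher in EpiLCs than in naive ESCs (log2 2.41 ± 0.217, adjusted p = 8.07e-15), on 14 and 33 reads in the naive libraries and 83 and 220 in the EpiLC libraries. It was also a higher DET from naive ESCs to early gastruloids (2.32 ± 0.211, adjusted p = 1.61e-14) and fell to late gastruloids by 0.50 (SE 0.166, adjusted p = 0.00575), a call lost without early replicate 1 (adjusted p = 0.09), without late replicate 2 (adjusted p = 0.0616) and with DESeq2 (adjusted p = 0.174).

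Taken per kb of merged exons, MTF2 held 48.4 to 59.1% of the summed Polycomb-like level in the human groups, PHF1 27.5 to 42.8% and PHF19 8.83 to 17.7%. The PHF1 share was highest in early RA-gastruloids (42.8% ± 0.938, SD, n = 2) and the PHF19 share in late RA-gastruloids (17.7% ± 2.69). In mouse Mtf2 held 98.8% ± 0.545 in naive ESCs, 91.7% ± 1.26 in EpiLCs, 93.0% ± 0.561 in early and 86.5% ± 1.48 in late gastruloids. Phf19 went from 0.662% in naive ESCs to 7.65% in EpiLCs. The mouse Phf1 share, at most 6.11%, carries the loss of reads to the Cuta overlap. With canonical transcript lengths the MTF2 share was 46.1 to 56.9% in human and 87.1 to 98.8% in mouse.

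Ranked per kb of merged exons within a group, JARID2 was the highest human member in both naive and primed H9 ESCs (19.6 and 70.1 CPM per kb), in RUES2-GLR ESCs (26.2) and in early RA-gastruloids (19.2), and MTF2 was highest in late RA-gastruloids (14.2). EZH1 was lowest in all 5 human groups, at 1.08 to 2.20 CPM per kb. Suz12 was the highest mouse member in naive ESCs (74.6), EpiLCs (34.0) and early gastruloids (60.8), and Ezh2 in late gastruloids (43.7), with Phf1 lowest in all 4 groups at its understated level, so that this rank is uncertain. Jarid2 overlapped Suz12 in EpiLCs, at 26.9 and 33.8 CPM per kb. In naive ESCs and EpiLCs Suz12 and Mtf2 overlapped (75.9 and 73.3 against 77.4 and 69.8, and 33.2 and 34.8 against 33.6 and 30.4 CPM per kb), as did Phf1 and Phf19 in naive ESCs. This ranking depends on the lengths. With canonical transcripts EZH2 led in naive H9 ESCs and in both RA-gastruloid stages, and Eed, Ezh2, Jarid2 and Ezh2 led in the 4 mouse stages in turn.

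Whether the species differed was tested on the difference of the log2 fold changes (human minus mouse) in a joint fit over 14007 genes matched by symbol. Cell lines, media and time scales differ between the species, so species and protocol cannot be told apart. For naive to primed (H9 in human, EpiLC in mouse) all 9 members differed at adjusted p under 0.05, against 64.2% of genes. MTF2 differed by 1.75 ± 0.131 (adjusted p = 3.93e-14), having risen in human (0.58 in the joint fit) and fallen in mouse (-1.17). JARID2 differed by 1.61 ± 0.133 (adjusted p = 5.53e-13) (1.76 in human and 0.15 in mouse). For PHF19 the mouse change was larger (-1.78 ± 0.276, adjusted p = 7.57e-07). EED differed by 1.05 ± 0.130 (adjusted p = 7.67e-09), with a change of -0.03 in human and -1.08 in mouse. The human side is the H9 line alone, and RUES2-GLR ESCs were not compared in this test. In primed RUES2-GLR ESCs MTF2, JARID2, PHF19 and EED were at 77.8, 163, 16.7 and 17.5 CPM, against 106, 438, 23.5 and 29.2 in primed H9 ESCs.

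For early to late gastruloids 8 of 9 members differed, against 59.3% of genes. The exception was EZH2, whose changes of 0.85 in human and 0.71 in mouse differed by 0.15 ± 0.123 (adjusted p = 0.315). EZH1 went opposite ways and differed by 1.67 ± 0.210 (adjusted p = 1.78e-08). PHF19 rose in human and fell in mouse (difference 1.38 ± 0.230, adjusted p = 3.45e-06), and PHF1 fell in human and rose in mouse (-1.52 ± 0.266, adjusted p = 7.28e-06), the mouse gene at its low counts. The mouse PHF1 call was lost without early replicate 1 (adjusted p = 0.105), without late replicate 1 (adjusted p = 0.22) and with DESeq2 (adjusted p = 0.197). JARID2, SUZ12 and EED fell in both species, with larger falls in mouse by 0.84, 1.02 and 0.97.

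**Figure D5:**
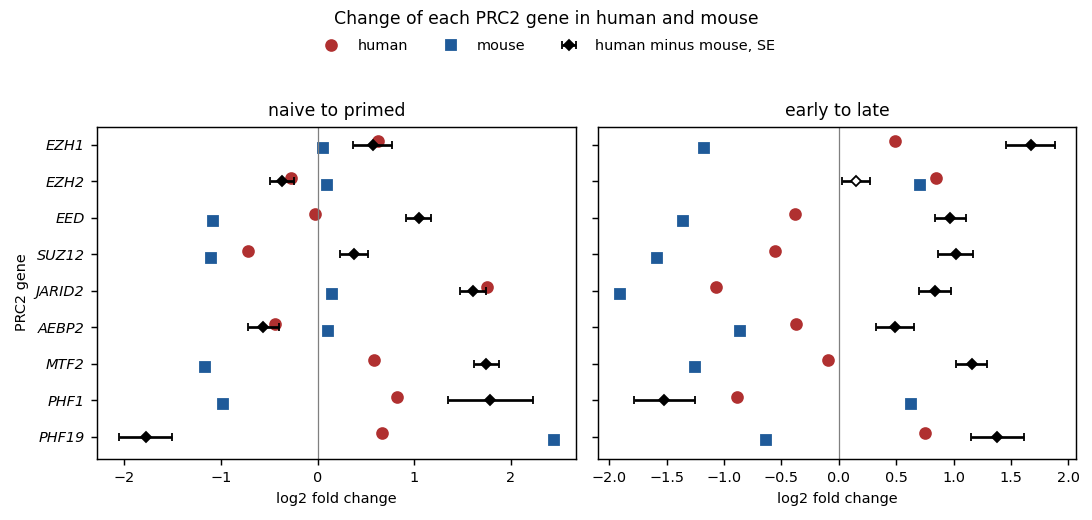
Log2 fold change (x axis) of each PRC2 gene (y axis) in human (circles) and mouse (squares), with the human minus mouse difference and its SE (diamonds, open where adjusted p was 0.05 or more). The open diamond is EZH2 from early to late, at 0.15 ± 0.123, and the widest differences there are EZH1 at 1.67 and PHF1 at -1.52.

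Markers of other cells moved with some of these changes, and their part was not tested. A list of fibroblast genes (COL1A1, COL1A2, COL3A1, DCN, LUM and POSTN), which could mark remaining feeders, summed to 686 and 665 CPM in naive and 267 and 276 CPM in primed H9 ESCs. COL1A1 led it in both, at 361 and 372 against 136 and 138 CPM. COL3A1 was at 181 and 172 CPM in naive H9 ESCs and 0.0699 and 0.0477 CPM in primed ones. Of the 6 genes 4 were lower DETs (22.3% of all genes), and the median log2 fold change over the 6 was -4.65. RUES2-GLR ESCs, which had no feeders, held 562 and 628 CPM of the list, and 2 of its 6 genes were at 0 in all 4 primed libraries. The list reached 1059 and 992 CPM in early and 686 and 583 CPM in late RA-gastruloids. In mouse it was at most 8.87 CPM before and 490 and 533 CPM in late gastruloids, where Col3a1 led with 330 and 361 CPM and all 6 genes were higher DETs (20.1% of all genes). Late mouse gastruloids also gained endoderm markers (Sox17, Foxa2 and Foxa1, 88.0 and 92.0 CPM against 2.57 and 3.17 in early) and cardiac markers (Tnnt2, Myh6 and Nkx2-5, 60.0 and 62.8 against 2.57 and 2.20 CPM). Endothelial markers went opposite ways, with Kdr at 0.988 and 0.879 CPM in early and 135 and 129 CPM in late gastruloids, Cdh5 at 0.0988 and 0 against 45.6 and 50.9 CPM, and Pecam1 lower in late (126 ± 2.02 against 29.8 ± 0.657 CPM, SD, n = 2). The neural crest genes Sox10 and Foxd3 summed to 1.75 and 2.83 CPM in late mouse gastruloids.

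In human, endothelial genes went from 104 and 107 CPM in RUES2-GLR ESCs to 15.9 and 16.2 CPM in early and 59.4 and 48.8 CPM in late RA-gastruloids, and all 3 were higher DETs from early to late (11.8% of all genes). KDR held most of that sum, with 54.4 and 45.5 CPM in the late libraries. FOXD3 and SOX10 summed to 19.6 and 20.4 CPM in RUES2-GLR ESCs, 1.63 and 1.92 CPM in early and 18 and 17.7 CPM in late RA-gastruloids, with FOXD3 at 0 in both early libraries. Of the 6 fibroblast genes 3 were higher and 1 a lower DET from early to late (11.8% and 13.2% of all genes). Endoderm genes went from 23.5 CPM in both early libraries to 1.21 and 1.12 CPM in late RA-gastruloids. SOX17 held most of the early sum, at 22.2 and 21.7 CPM. FOXA2 went from 1.38 to 0.124 CPM on average, and FOXA1, near the detection floor in both stages, from 0.199 to 0.323 CPM. Cardiac genes went from 1.83 and 1.21 CPM in early to 0.0485 and 0.204 CPM in late RA-gastruloids, with 2 of 3 at 0 in each late library. The cardiac genes did not pass the low-count filter in human and were not tested. EpiLC markers (Fgf5, Otx2, Pou3f1 and Dnmt3b) summed to 2367 and 2403 CPM in EpiLCs and 156 and 158 CPM in naive ESCs, and primed markers (SFRP2, ZIC2, DUSP6, THY1 and OTX2) to 1610 and 1730 CPM in primed H9 and 3124 and 3437 CPM in RUES2-GLR ESCs.

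The other PRC2 subunits are the histone chaperones RBBP4 and RBBP7, the elongin-binding EPOP, the inhibitor EZHIP and the LCOR and LCORL genes. Of 5 measured in human, 2 were higher and 2 lower DETs between naive and primed H9 ESCs (25.5% and 22.3% of all genes), and 2 were higher DETs from RUES2-GLR ESCs to late RA-gastruloids (17.3% of all genes). Human RBBP7 was at 141 and 122 CPM in naive cells of the H9 line and 378 and 376 CPM in primed ones. In mouse 1 of 6 was higher and 1 lower from naive ESCs to EpiLCs, near the 17.7% and 12.1% of all genes. Epop fell from 761 ± 18.4 CPM in naive ESCs to 170 ± 1.86 in EpiLCs (SD, n = 2, log2 -2.17 ± 0.0527, adjusted p = 9.19e-41). Ezhip, whose product blocks the EZH2 active site, rose there from 1.90 ± 0.663 to 16.6 ± 2.69 CPM (log2 3.15 ± 0.247, adjusted p = 4.35e-17) and was at 3.73 ± 0.306 CPM in early gastruloids. Rbbp7 rose from 625 ± 1.93 CPM in naive ESCs to 1256 ± 10.2 in early gastruloids (log2 1.01 ± 0.0477, adjusted p = 2.58e-26). In late against early mouse gastruloids 0 of 6 were higher and 2 lower DETs (20.1% and 19.1% of all genes). The median log2 fold change over the 6 was -0.47, against -0.03 over all genes.

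PRC1 ubiquitinates histone H2A, and its canonical form binds the PRC2 mark through CBX proteins. Of 10 canonical PRC1 genes, 6 were higher and 2 lower DETs from naive to primed H9 ESCs, against 25.5% and 22.3% of all genes. PHC1 rose from 7.31 ± 0.679 to 122 ± 3.14 CPM (log2 4.06 ± 0.135, adjusted p = 4.27e-22) and SCMH1 from 2.08 ± 0.137 to 20.2 ± 0.455 CPM (log2 3.28). CBX8 fell from 20.3 ± 0.949 to 0.884 ± 0.0640 CPM (log2 -4.48 ± 0.210, adjusted p = 2.18e-18). Of the 8 genes of the catalytic core 0 were higher and 3 lower DETs (25.5% and 22.3% of all genes), the lower ones including BMI1 (27.5 to 2.61 CPM, log2 -3.35). AUTS2, of a variant PRC1, rose from 16.4 to 134 CPM (log2 3.03) and fell again from RUES2-GLR ESCs to early RA-gastruloids (161 to 57.5 CPM, log2 -1.49).

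Between the primed lines KDM6A, an H3K27 demethylase, was lower in RUES2-GLR ESCs (82.4 to 23.5 CPM, log2 -1.70 ± 0.148), as were CBX7 (log2 -1.61) and BAP1 (log2 -1.13). In early RA-gastruloids against RUES2-GLR ESCs 6 of 8 PR-DUB genes, which remove the PRC1 mark, were higher DETs (12.0% of all genes). The median log2 fold change over the 8 was 1.27, against 0.08 over all genes. PHC2 (39.3 to 187 CPM, log2 2.25), YAF2 (log2 2.02) and BCORL1 (log2 1.99) rose most among the related genes that reached 10 CPM, and PHC1 fell (log2 -1.31). ASXL3, at 0.446 ± 0.180 CPM in RUES2-GLR ESCs and 5.37 ± 0.117 in early RA-gastruloids, stayed under that level. By late RA-gastruloids ASXL3 had gone from 0.446 to 50.3 CPM (log2 6.57 ± 0.276), ASXL1 from 23.5 to 141 CPM (log2 2.59) and BCOR from 129 to 33.1 CPM (log2 -1.95). In the step from early to late RA-gastruloids ASXL3 (log2 3.23), PCGF5 (log2 1.70) and CBX6 (log2 1.23) rose and RYBP fell (log2 -1.26).

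In mouse Phc1 (log2 1.32) and E2f6 (log2 1.23) rose and Asxl2 fell (log2 -1.03) from naive ESCs to EpiLCs, and 0 of 8 catalytic core genes were DETs (17.7% of all genes were higher and 12.1% lower). From EpiLCs to early gastruloids Asxl2 (log2 1.78), Phc3 (log2 1.73) and Scmh1 (log2 1.05) rose and Ezhip fell (log2 -2.09). Lcorl rose (log2 1.19) and Epop (log2 -1.57) and Bcorl1 (log2 -1.16) fell from naive ESCs to early gastruloids. Between early and late gastruloids 4 of 10 canonical PRC1 genes were higher and 3 lower DETs (20.1% and 19.1% of all genes). Cbx7 fell from 199 ± 4.01 to 18.2 ± 1.45 CPM (log2 -3.46 ± 0.0829, adjusted p = 2.12e-41), while Cbx8 rose from 0.752 to 12.7 CPM (log2 3.99 ± 0.280). Asxl3 rose (log2 2.96), and L3mbtl2 (log2 -1.97) and Asxl2 (log2 -1.76) fell.

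The genes with profiles most like EZH2 over the 10 human libraries, among 10073 genes of at least 10 CPM on average, were BORA, ASXL3 and MEIS1 (Pearson r of log2 CPM 0.991, 0.990 and 0.989). ASXL3 reached that average only through late RA-gastruloids, where EZH2 was also highest. For EZH1 they were KLHL22, ZNF608 and BPGM (0.953, 0.948 and 0.947). Over the 8 mouse libraries (9512 genes) they were Rfk, Tnfaip8 and Tmem128 for Ezh2 (0.992 each) and included Castor1 and Pycard for Ezh1 (0.996 and 0.993). These correlations describe libraries that share stages in pairs. Between the methyltransferases the correlation was 0.610 in human and -0.892 in mouse.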

How the data were processed

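RNA-seq gene counts were analysed for all 18 samples. The authors made poly(A) libraries (NEBNext Ultra II), ran Trimmomatic 0.39 on the reads, mapped these with STAR (GRCh38 for human, GRCm39 for mouse) and counted them per gene with featureCounts, ignoring strand and leaving out reads that map to or overlap several genes. The annotation release is not given in the sources used here. The deposited values were raw counts per gene, 1 table per species, and 0 sample columns were unmapped. Gene identifiers were named with GENCODE v44 and M39 (44876 of 44910 human and 29486 of 29720 mouse genes matched). Counts were filtered (filterByExpr), scaled by TMM and fitted with edgeR 4.0.16, 1 coefficient per group and 1 fit per species (18300 human and 15003 mouse genes tested), or 1 joint fit for the species difference. The study lists DESeq2 among its packages and gives no settings for it in the sources used here; it was run as an alternative. For a DET, p adjusted over all genes tested had to lie under 0.05 and the log2 fold change beyond 1 in either direction. Correlations used log2(CPM + 0.5). The floor of a library was 3 reads, for counting error only.

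On counts simulated for naive to primed H9 ESCs (16935 genes) 87 of 100 genes changed by log2 1 and 99 of 100 changed by log2 2 were recovered by adjusted p under 0.05, with 2.11% of calls false, and 84 and 98 of 100 for mouse naive ESCs to EpiLCs (14278 genes, 4.71% of calls false). Only these genes changed in the simulation, drawn from those above 1 CPM, and all others kept the same mean in every group. Their spread was the fitted trend with mean level. In the real naive to primed H9 comparison 75.3% of genes passed the adjusted p alone. The simulated shares therefore need not hold for the real comparisons or for members at low counts. All 9 members were named in every library. From the related lists together, the 3 largest rises and falls of each comparison were named among DETs of at least 10 CPM whose replicates did not overlap, and for EZH1 and EZH2 the 3 genes with the highest Pearson r; some genes that these rules name are not reported here. Members and gene lists were chosen with earlier results of these data known. Alternatives were DESeq2 1.42.0 and its size factors, upper-quartile scaling, other count filters, fits of the compared groups only, a replicate block, leaving out each replicate and, added after seeing the data, canonical transcript lengths.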

Additional observations from a re-analysis of the deposited data

Results flagged for a closer look

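Members of PRC2 are listed here because the test of the human minus mouse difference in log2 fold change passed an adjusted p of 0.05. From naive to primed the difference was above 0 for PHF1 (1.79), MTF2 (1.75), JARID2 (1.61), EED (1.05), EZH1 (0.57) and SUZ12 (0.38). It was below 0 for EZH2 (-0.37), AEBP2 (-0.56) and PHF19 (-1.78). The PHF1 difference had an SE of 0.442, and its mouse side rested on 7 and 22 reads in naive ESCs and 6 and 11 in EpiLCs. From early to late gastruloids it was above 0 for EZH1 (1.67), PHF19 (1.38), MTF2 (1.16), SUZ12 (1.02), EED (0.97), JARID2 (0.84) and AEBP2 (0.49), and below 0 for PHF1 (-1.52). The species differ in cell lines, media and time scale as well, and these cannot be told apart. Groups of 2 replicates were too small for the test of single outlying libraries.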

How the results depend on the processing

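Each comparison was recomputed under the alternatives to the fit. With a minimum of 10 counts and with the compared groups only, not every member change could be tested. The p-values measure only the spread between replicates, 2 a group and pooled over the groups of a species. Member DETs by adjusted p alone, in place of 1 from naive to primed H9 ESCs, 1 between primed lines, 1 from RUES2-GLR ESCs to early and 1 from early to late RA-gastruloids, 2 from RUES2-GLR ESCs to late, 2 from EpiLCs to early, 2 from naive ESCs to early and 5 from early to late mouse gastruloids, numbered 7, 5, 4, 8, 7, 7, 8 and 9. A minimum of 10 counts left 1 DET from EpiLCs to early gastruloids (Phf1 untested), and upper-quartile scaling gave 4 from naive ESCs to early gastruloids (Jarid2 and Phf1 added). Leaving out replicates gave 1 to 2 DETs from early to late RA-gastruloids. Mouse Ezh1 was no DET from early to late with DESeq2 size factors or without late replicate 2 (4 DETs). Differences between species were called for 7 to 9 members (naive to primed) and 7 to 8 (early to late) when replicates were left out. Same-numbered replicates did not deviate together (r from -0.112 to 0.0684 in human and -0.0483 to 0.00806 in mouse), and the replicate block again gave 5 DETs from early to late mouse gastruloids and 4 from naive ESCs to EpiLCs, with no member DET lost or gained in any of the 9 comparisons. By adjusted p alone it lost PHF1 between the primed lines (0.0533).

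Of 887 recomputed member changes, 27 reversed, in 12 member changes whose adjusted p was 0.0869 or more. EED from naive to primed H9 ESCs was -0.07 with DESeq2 and with its size factors. AEBP2 between the primed lines was 0.07 with DESeq2 size factors, 0.11 with upper quartile, 0.04 with DESeq2 and 0.12 with the compared groups only. From RUES2-GLR ESCs to early RA-gastruloids PHF19 was -0.03 with upper quartile and -0.01 with the compared groups only, and EZH1 was -0.0046 with upper quartile. MTF2 from RUES2-GLR ESCs to late was -0.02 with DESeq2 size factors, -0.05 with upper quartile, -0.004 with DESeq2 and -0.03 with the compared groups only. Ezh1 from EpiLCs to early gastruloids was -0.01 with upper quartile. When replicates were left out in turn, the log2 change of EED from naive to primed H9 ESCs ranged from -0.06 to 0.07 and that of AEBP2 between the primed lines from -0.23 to 0.15. In early RA-gastruloids against RUES2-GLR ESCs the ranges were -0.02 to 0.18 for PHF19, -0.2 to 0.1 for AEBP2 and -0.02 to 0.3 for EZH1, and for MTF2 to late RA-gastruloids -0.12 to 0.2. From mouse naive ESCs to EpiLCs they were -0.01 to 0.15 for Aebp2, -0.05 to 0.12 for Ezh1 and -0.06 to 0.27 for Jarid2, with -0.19 to 0.07 for Phf19 from EpiLCs to early gastruloids and -0.02 to 0.16 for Ezh1 from naive ESCs to early gastruloids. By adjusted p alone, 47 recomputations in 13 member changes lost a call and 14 in 8 gained one. Those lost include EZH1, AEBP2 and SUZ12 from RUES2-GLR ESCs to late RA-gastruloids without late replicate 1 (adjusted p = 0.113, 0.0972 and 0.189) and mouse Phf1 with DESeq2 from early to late (0.197) and from naive ESCs to early (0.129). The cause was not tested. Over all genes, the median change between primed lines was -0.12 with TMM and 0.00 with DESeq2 size factors. The depth of 3681739 reads in RUES2-GLR replicate 2 limits EZH1, EED and PHF19 there.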
